A study of Mus musculus with 12 samples.

Results

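The Hox genes of the 4 mouse clusters were examined across cerebellum arrays of mice lacking Ciz1 and of control mice. Members were the array rows whose only gene symbol was Hoxa, Hoxb, Hoxc or Hoxd followed by a number. Antisense and other noncoding genes of the clusters were left out, and the brightest row was taken where a gene had several. This gave 36 genes of 22180 with a row of their own, out of 39 protein-coding Hox genes in the RefSeq table (assembly GRCm38.p6). The remaining genes were not analysed here. Hoxb5 was the 1 member with more than 1 row. The clusters lie on chromosomes 6 (Hoxa), 11 (Hoxb), 15 (Hoxc) and 2 (Hoxd).

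The 12 arrays held total RNA from the cerebellum of 6 KO and 6 WT mice, with 3 arrays in each of KO_male, KO_female, WT_male and WT_female. The knockout mice are labelled Ciz1-/-. The control mice are called wild type in the source name and Ciz1+/+ in the extraction protocol, but Ciz1+/- in the genotype field. Mice were 10 months old according to the extraction protocol, but 6 to 10 months old according to the design text. How the Ciz1 allele was produced is not stated in the labels. Ciz1, which encodes a nuclear protein that acts in DNA replication and in anchoring Xist RNA, averaged 7.13 ± 0.18 in KO arrays and 8.76 ± 0.08 in WT arrays on the log2 scale (SD, n = 6 each). Its difference was -1.64 (SE 0.07; limma adjusted p = 1.42e-06). Defining markers of the tissue were bright in all arrays: Calb1 of Purkinje cells averaged 12.34 and Gabra6 of granule cells 11.94.

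Hox proteins are transcription factors with a homeodomain that give cells their position along the head-to-tail axis. Within a cluster, genes at the low-numbered end are switched on first and reach farthest forward, into the hindbrain, while high-numbered genes act in the trunk, limbs and tail. The cerebellum grows out of rhombomere 1, the hindbrain segment in front of the Hox domains, whereas neurons of the medulla and spinal cord keep Hox transcripts into adult life. For this reason Hox RNA is a possible sign of caudal hindbrain tissue taken along with a cerebellum.

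Hox rows were dim. The mean over the 12 arrays ran from 4.32 for Hoxc5 to 7.05 for Hoxd10, with a median over the members of 5.55, against a median of 6.96 over all 22180 genes. Of the 36 members, 35 lay below that median of all genes. Rows of 1088 olfactory receptor genes, which are silent in most tissues outside the nose, served as a low-level guide, since no detection call was used here. Their median was 4.38 and their 95th percentile 6.45. The Hox means exceeded that percentile in 5 of 36 members (13.9%), against 59.7% of all genes. The olfactory median was exceeded by 35 of 36 members (97.2%), near the 91.8% of all genes. A second guide was the Y-linked genes Eif2s3y, Kdm5d and Uty, which females lack: their rows read 3.95 to 5.39 in female arrays, against 8.56 to 9.18 in male arrays. In 13 Hox members the mean was at or below the highest of these female values. Brightness depends on the probes of a row, so these levels do not order the members by amount of RNA. No sample with known Hox expression was available, so whether each row responds to its RNA was not tested.

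**Figure D1:**
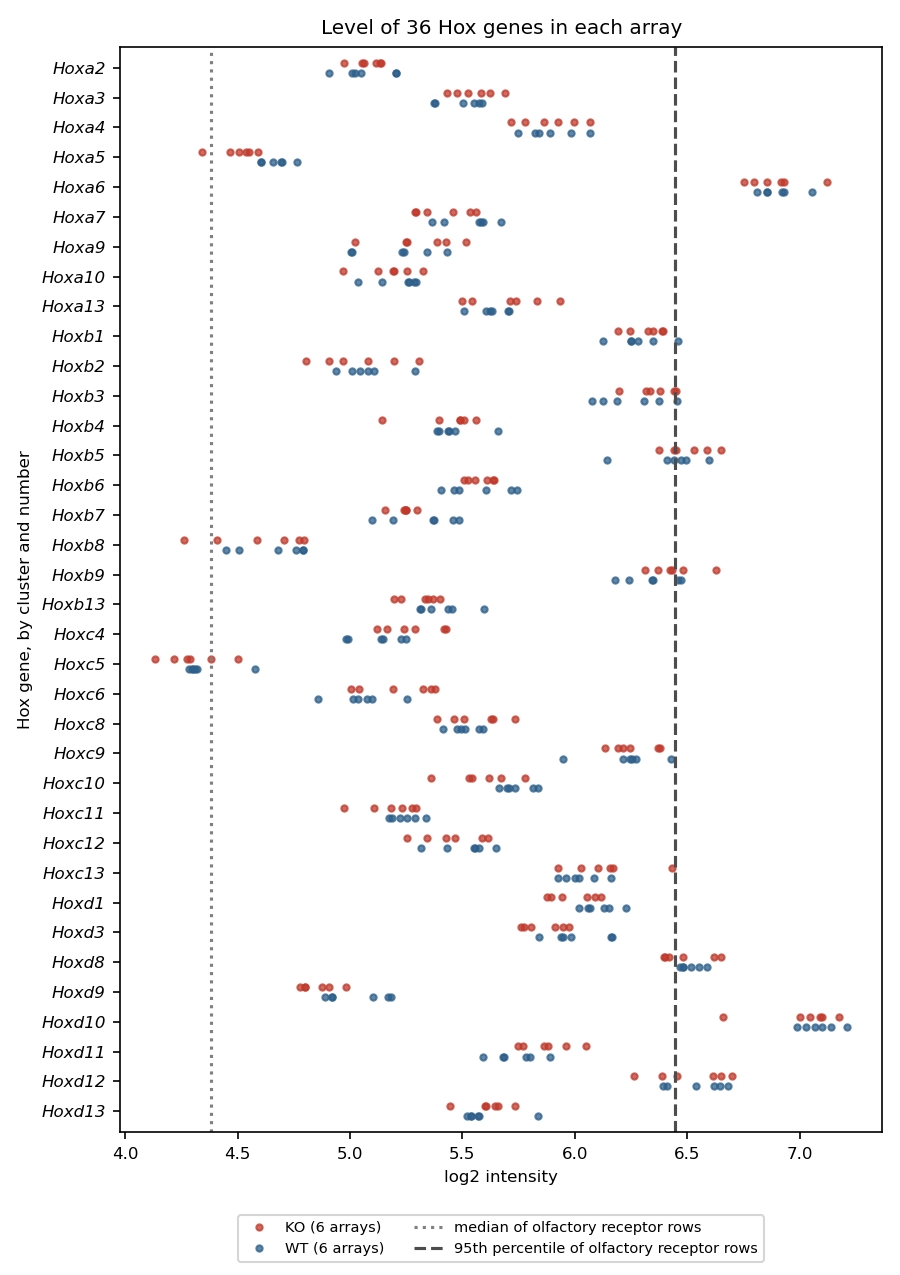
Log2 intensity of each of the 36 Hox genes (rows, by cluster and number) in the 6 KO arrays (red, upper points) and 6 WT arrays (blue, lower points). The dotted and dashed lines mark the median (4.38) and 95th percentile (6.45) of olfactory receptor rows; most points lie between the lines.

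The 5 members above the olfactory 95th percentile were Hoxd10, Hoxa6, Hoxd12, Hoxd8 and Hoxb5. Hoxd10, which acts in limb and lumbar spinal motor neuron patterning, read 6.66, 7.17 and 7.0 in KO_male, 7.10, 7.05 and 7.09 in KO_female, 7.10, 7.03 and 7.14 in WT_male and 6.99, 7.07 and 7.21 in WT_female. KO_male replicate 1 was the low array, and the groups overlapped. Its difference was -0.08 (SE 0.08; limma adjusted p = 0.791). Hoxa6, a trunk gene of the Hoxa cluster, read 6.92, 6.80 and 6.85 in KO_male, 6.93, 6.75 and 7.12 in KO_female, 6.92, 6.81 and 6.85 in WT_male and 7.05, 6.93 and 6.85 in WT_female. The highest reading of Hoxa6 was in a KO array, and the genotypes overlapped over most of their range.

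Hoxd12, a limb gene, read 6.39, 6.65 and 6.70 in KO_male, 6.46, 6.26 and 6.62 in KO_female, 6.62, 6.64 and 6.39 in WT_male and 6.41, 6.54 and 6.68 in WT_female. Hoxd8, a trunk gene, read 6.42, 6.40 and 6.48 in KO_male, 6.40, 6.65 and 6.62 in KO_female, 6.51, 6.47 and 6.59 in WT_male and 6.48, 6.55 and 6.48 in WT_female. Both genes had overlapping genotypes, with differences of -0.04 (SE 0.08) for Hoxd12 and -0.02 (SE 0.05) for Hoxd8. Hoxb5, a gene of the lower hindbrain and neck region, read 6.37, 6.59 and 6.45 in KO_male, 6.53, 6.44 and 6.65 in KO_female, 6.41, 6.14 and 6.60 in WT_male and 6.47, 6.49 and 6.44 in WT_female. Its other row was dimmer, at 6.28 on average against 6.46, and lay below the olfactory 95th percentile. The place of Hoxb5 above that percentile thus rests on the row chosen. Its difference was 0.08 with that row and 0.03 with the mean of its rows. The dimmer row alone averaged slightly lower in KO, so the rows of Hoxb5 differed in sign. Hoxb5 was the member just inside the line, and Hoxb9, at 6.39, the one just outside it.

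The number of a Hox gene follows its place along the body axis, and the readings are given by number as a description only, since they come from different probes. Genes of groups 1 to 4, whose known domains include the hindbrain, had a median of 5.71 over 10 members, with 0 above the olfactory 95th percentile. Genes of groups 5 to 8 had a median of 5.47 over 11 members, with 3 above it, and those of groups 9 to 13 a median of 5.66 over 15 members, with 2 above it. Hoxa2 and Hoxb2, which set the identity of hindbrain segments behind the cerebellum, were near the dim end, at 5.07 and 5.06. Hoxb1, which specifies the segment of the facial motor neurons, was at 6.30, and its paralogue Hoxd1 at 6.05. Hoxb3, active in the caudal hindbrain, was at 6.30, against 5.93 for Hoxd3 and 5.52 for Hoxa3. In the group 4 genes, Hoxa4 stood at 5.89, Hoxb4 at 5.45 and Hoxc4 at 5.20. Of the clusters, Hoxd held 3 of the 5 members above the line, Hoxa and Hoxb 1 each and Hoxc 0.

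**Figure D2:**
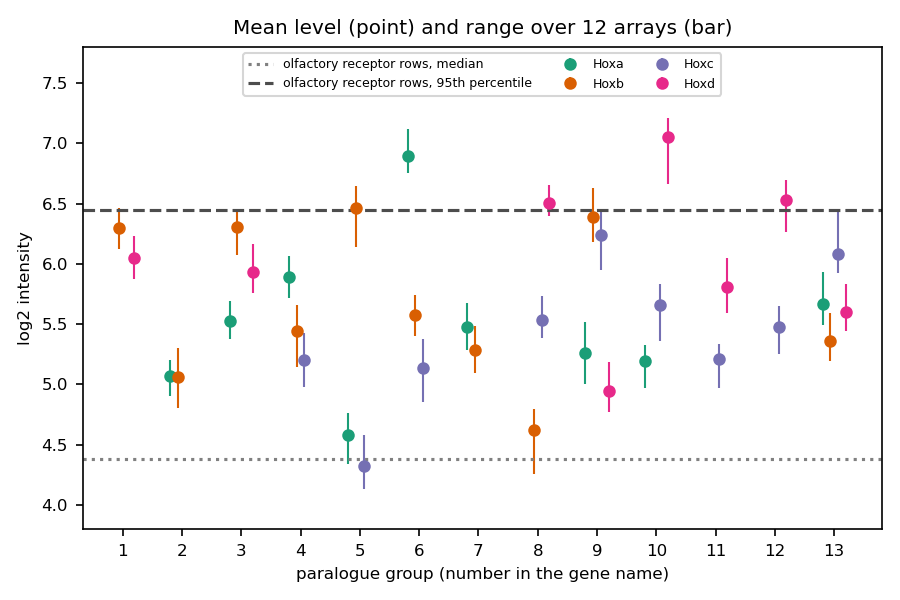
Mean log2 intensity (points) and range over the 12 arrays (bars) of the 36 Hox genes by the number in the gene name, coloured by cluster. The lines mark the olfactory receptor median (4.38) and 95th percentile (6.45); no member of groups 1 to 4 has a mean above the upper line, and Hoxd10 is highest at 7.05.

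Between genotypes, Hox levels were close. The median difference over the 36 members was -0.01 on the log2 scale, against -0.00 over all genes, with 16 members higher and 20 lower in KO. Differences ran from -0.18 to 0.16, and no unadjusted 95% interval reached beyond -0.31 or 0.35. With limma, 0 of 36 members passed an adjusted p of 0.05, where 0.0225% of all genes did, and the smallest adjusted p was 0.373. At an unadjusted p under 0.05 there were 4 of 36 members (11.1%), near the 9.26% of all genes. These were Hoxa5, Hoxd9, Hoxd11 and Hoxc10. Adjustment was by Benjamini-Hochberg over all 22180 genes. In these whole-tissue samples, fewer cells of a type and less RNA per cell cannot be told apart.

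Hoxa5, known from lung and neck development, read 4.59, 4.34 and 4.47 in KO_male, 4.51, 4.54 and 4.55 in KO_female, 4.76, 4.60 and 4.70 in WT_male and 4.69, 4.66 and 4.60 in WT_female. It was the only 1 of 36 members (2.78%) whose 6 KO arrays did not overlap the 6 WT arrays, where 0.55% of all genes did not overlap. The gap was narrow, and all 12 readings lay within the 3.95 to 5.39 that the Y-linked rows read in females. The difference was -0.17 (SE 0.05; limma unadjusted p = 0.00535, adjusted p = 0.373), so it did not pass. With a pseudocount of 16 the difference was -0.10. Hoxd9, a gene of the posterior trunk and limb, read 4.80, 4.78 and 4.80 in KO_male, 4.87, 4.98 and 4.91 in KO_female, 5.10, 4.92 and 5.17 in WT_male and 4.92, 5.18 and 4.89 in WT_female. The genotypes overlapped in females, and the difference was -0.18 (SE 0.06; adjusted p = 0.462).

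Hoxd11, needed for the forearm and kidney, read 5.88, 5.96 and 5.86 in KO_male, 5.77, 5.75 and 6.05 in KO_female, 5.69, 5.59 and 5.68 in WT_male and 5.80, 5.89 and 5.78 in WT_female. Its difference was 0.14 (SE 0.06; adjusted p = 0.51), opposite in sign to that of Hoxd9 in the same cluster. Without KO_female replicate 3 the difference of Hoxd11 was 0.09. Hoxc10, a gene of the lumbar trunk, read 5.54, 5.62 and 5.67 in KO_male, 5.36, 5.53 and 5.78 in KO_female, 5.82, 5.73 and 5.70 in WT_male and 5.84, 5.71 and 5.66 in WT_female. KO_male replicate 3 and KO_female replicate 3 lay within the WT range, and the difference was -0.16 (SE 0.07; adjusted p = 0.517). Members of 1 paralogue group, which share much of their protein sequence, also differed in sign. In group 9 Hoxa9, Hoxb9 and Hoxc9 had values of 0.10, 0.10 and 0.03 beside -0.18 for Hoxd9. In group 6 Hoxc6 had 0.16 and Hoxa6 -0.01. By cluster the median differences were -0.00 for Hoxa, -0.01 for Hoxb, 0.03 for Hoxc and -0.06 for Hoxd. By position they were 0.01 in groups 1 to 4, -0.02 in groups 5 to 8 and -0.04 in groups 9 to 13.

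**Figure D3:**
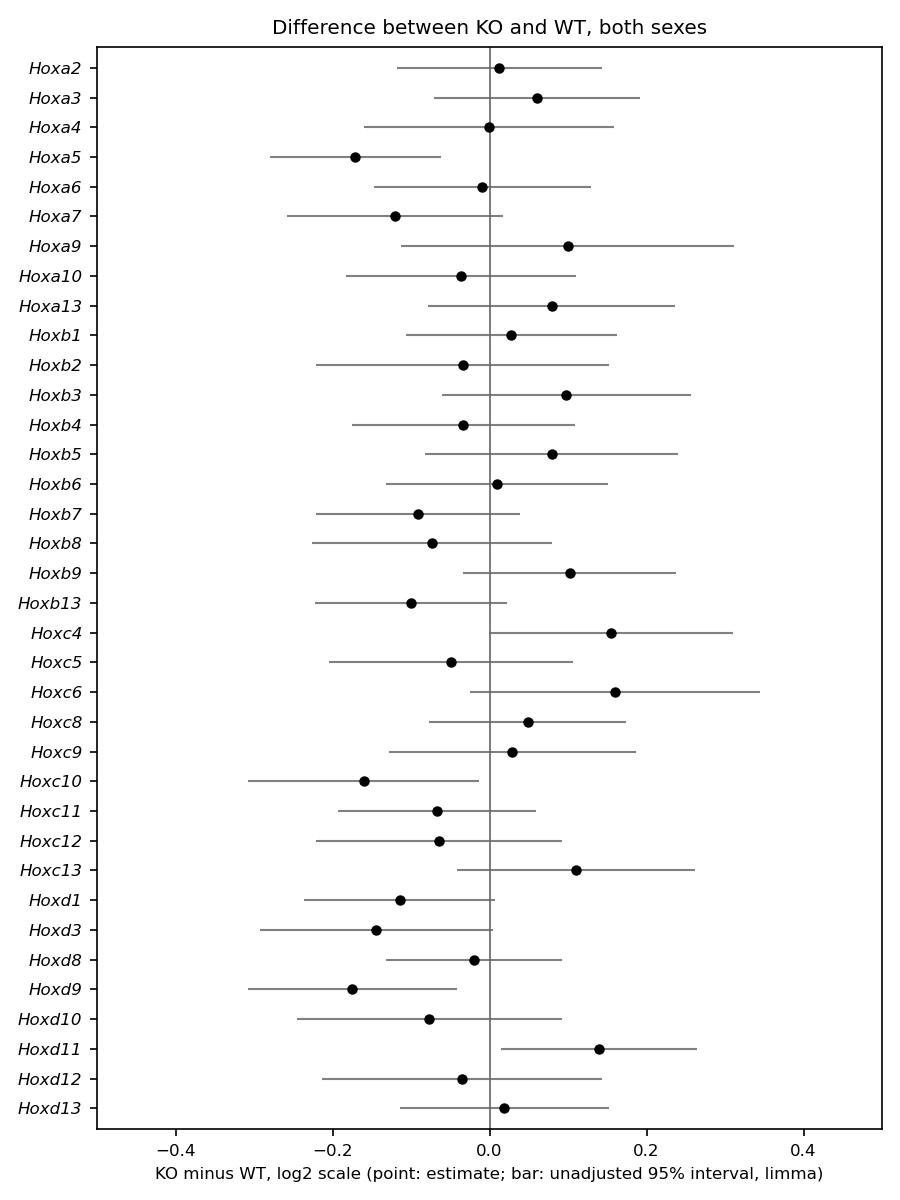
KO minus WT difference on the log2 scale for each of the 36 Hox genes over both sexes, with limma's unadjusted 95% interval. The estimates lie between -0.18 and 0.16, and 0 members passed after adjustment over all genes.

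In males, 0 of 36 members passed with limma, where 0.0225% of all genes did, and 3 of 36 (8.33%) had an unadjusted p under 0.05, against 5.42% of all genes. These were Hoxd9 (-0.27, SE 0.09), Hoxa5 (-0.22, SE 0.07) and Hoxd11 (0.25, SE 0.08), each with an adjusted p of 0.874. The 3 KO_male and 3 WT_male arrays did not overlap in 7 of 36 members (19.4%), against 10.3% of all genes. In 4 of these 7 the KO_male arrays were lower (Hoxa5, Hoxc10, Hoxd3 and Hoxd9) and in 3 higher (Hoxc13, Hoxd11 and Hoxd13).

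In females, 0 of 36 members passed with limma, where 0.0225% of all genes did, and 1 of 36 (2.78%) had an unadjusted p under 0.05, against 8.49% of all genes. That member was Hoxb7, a trunk gene, which read 5.25, 5.24 and 5.16 in KO_female and 5.49, 5.37 and 5.37 in WT_female, beside 5.25, 5.25 and 5.30 in KO_male and 5.19, 5.10 and 5.46 in WT_male. Its KO_female arrays were all below the WT_female arrays, and the difference was -0.20 (SE 0.08; limma adjusted p = 0.56). The next members were Hoxc10 (-0.18, SE 0.10) and Hoxa7 (-0.16, SE 0.09). The value of Hoxc10 was -0.08 without KO_female replicate 1 and -0.29 without KO_female replicate 3. Hoxa7, a trunk gene, read 5.34, 5.54 and 5.46 in KO_female and 5.67, 5.58 and 5.58 in WT_female, beside 5.29, 5.56 and 5.29 in KO_male and 5.59, 5.36 and 5.42 in WT_male. The groups did not overlap in 3 of 36 members (8.33%), Hoxa5, Hoxa7 and Hoxb7, all lower in KO_female, against 14.9% of all genes.

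The genotype effect in females minus that in males was tested as an interaction. With limma 0 of 36 members passed, where 0% of all genes did, and 0 had an unadjusted p under 0.05, against 4.82% of all genes. The members with the smallest p were Hoxd11 (-0.22, SE 0.11), Hoxb7 (-0.21, SE 0.12) and Hoxd9 (0.19, SE 0.12), each with an adjusted p of 0.998. The value of Hoxb7 was -0.13 without WT_male replicate 2, and that of Hoxd9 was 0.13 with a pseudocount of 16.

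Between the sexes, averaged over genotype, 0 of 36 members passed with limma, where 0.0361% of all genes did. At an unadjusted p under 0.05 there was 1 of 36 (2.78%), against 7.93% of all genes. That member, Hoxb8, a trunk gene also known from microglial precursors, read 4.71, 4.79 and 4.77 in KO_female and 4.79, 4.76 and 4.68 in WT_female, against 4.41, 4.59 and 4.26 in KO_male and 4.79, 4.51 and 4.45 in WT_male. Only WT_male replicate 1 among the males reached the female range. Hoxb8 averaged 4.75 ± 0.05 in females and 4.50 ± 0.18 in males (SD, n = 6 each), a difference of 0.25 (SE 0.07; limma adjusted p = 0.52). It was 0.15 with a pseudocount of 16 and 0.17 with the brainstem motor covariate. Hoxb4, active from the caudal hindbrain backwards, read 5.56, 5.51 and 5.49 in KO_female and 5.40, 5.66 and 5.43 in WT_female, against 5.49, 5.14 and 5.39 in KO_male and 5.39, 5.47 and 5.44 in WT_male. The sexes overlapped, and the differences were 0.12 (SE 0.06) for Hoxb4 and 0.11 (SE 0.06) for Hoxa7. Without KO_male replicate 2 that of Hoxb4 was 0.07, and with the brainstem motor covariate that of Hoxa7 was 0.07.

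As a group the Hox rows barely moved between arrays. Their mean level was 5.64 to 5.69 in KO arrays and 5.61 to 5.69 in WT arrays, a range of 0.08 over all 12, and no array stood apart in this mean. A mean over 36 genes varies less than its members, which ranged over 0.26 to 0.55 each. Single members varied within groups with an SD of 0.08 to 0.19 and a median of 0.12, where genes at or below the olfactory 95th percentile had a median SD of 0.16. The members did not vary together: over the 630 pairs the median correlation of their deviations from the group means was 0.02, and 51.6% of the pairs were above 0. These pairs share the same 12 arrays and their normalization. Choroid plexus markers, genes of the secretory tissue of the ventricles, gave a contrast within the same arrays. In the 11 of 14 listed markers with a row, the mean level was 6.42 to 7.61 in KO arrays and 6.63 to 7.99 in WT arrays, a range of 1.58, and the median correlation over 55 pairs was 0.89. Ttr, the thyroxine carrier made by this tissue, averaged 10.64 in KO and 11.79 in WT, with a range of 5.74. The 2 arrays highest in choroid plexus, WT_male replicate 1 at 7.99 and WT_female replicate 2 at 7.93, had Hox means of 5.69 and 5.68, in the upper part of the narrow Hox range. The next 2, KO_female replicate 2 at 7.61 and KO_male replicate 2 at 7.42, were not in that upper part, with Hox means of 5.65 and 5.64. KO_female replicate 3, highest in the Hox mean at 5.69, stood at 6.76 in choroid plexus, and KO_female replicate 1, lowest in choroid plexus at 6.42, had a Hox mean of 5.64. The part of choroid plexus in the Hox mean was not tested.

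Genes of brainstem neurons were set beside the Hox genes. For this and the lists below, 0.0225% of all genes passed with limma between KO and WT, so 0 in a short list says little. Of 10 markers of brainstem motor and cholinergic neurons, 8 had a row and 1, the receptor gene Ret, averaged above the olfactory 95th percentile. Their mean level was 5.86 to 5.96 in KO arrays and 5.83 to 5.98 in WT arrays, and 0 of 8 passed in either direction. These markers did not vary together: over 28 pairs the median correlation of their deviations from the group means was -0.11. Their mean, used here as the brainstem motor covariate, is thus not shown to follow brainstem content. Chat, the enzyme that makes acetylcholine, averaged 6.20 in KO and 6.10 in WT (difference 0.09, SE 0.05; limma adjusted p = 0.575). The vesicular acetylcholine transporter Slc18a3 differed by 0.09. Of 9 monoaminergic markers, 7 had a row, 2 lay above the line (Th and Ddc), and 0 passed. The serotonin transporter Slc6a4 averaged 5.61 in KO and 5.59 in WT, the serotonin-synthesis enzyme Tph2 differed by -0.16 (SE 0.06; adjusted p = 0.49) and the vesicular monoamine transporter Slc18a2 by -0.17 (SE 0.07; adjusted p = 0.493). Th, the rate-limiting enzyme of catecholamine synthesis, averaged 7.81 over the arrays.

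A list of 10 genes of other brainstem nuclei, 8 with a row, held 5 above the line, and 0 of 8 passed. The glycine transporter Slc6a5, which Golgi cells of the cerebellum also use, averaged 8.98 in KO and 9.08 in WT. Slc17a6, the vesicular glutamate transporter of brainstem and of deep cerebellar nuclei, was the member of the list that varied. It read 7.51, 6.71 and 6.17 in KO_male, 5.86, 5.95 and 7.08 in KO_female, 7.07, 7.43 and 7.81 in WT_male and 7.55, 7.40 and 7.76 in WT_female. The 4 lowest arrays were all KO, and KO_male replicate 1 and KO_female replicate 3 lay within the WT range. The difference was -0.95 (SE 0.25; limma adjusted p = 0.318) and did not pass.

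Meis2, a homeodomain cofactor of Hox proteins, followed a like pattern. It read 6.59, 6.03 and 6.20 in KO_male, 5.63, 6.08 and 6.54 in KO_female, 6.64, 6.51 and 6.60 in WT_male and 6.50, 6.72 and 6.87 in WT_female, a difference of -0.46 (SE 0.14; adjusted p = 0.398). The same 4 KO arrays were lowest. Slc17a6 ranged over 1.95 and Meis2 over 1.24 on the log2 scale, where single Hox genes ranged over 0.26 to 0.55 in the same arrays. The 2 arrays lowest in Slc17a6, KO_female replicates 1 and 2, had Hox means of 5.64 and 5.65, and the array highest in it, WT_male replicate 3, had 5.65. Over all 12 arrays the correlation with the Hox mean was 0.2 for Slc17a6 and 0.46 for Meis2. Whether these levels share a source was not tested. Slc17a6 and Meis2 were singled out after their values were seen, for how much they varied.

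**Figure D4:**
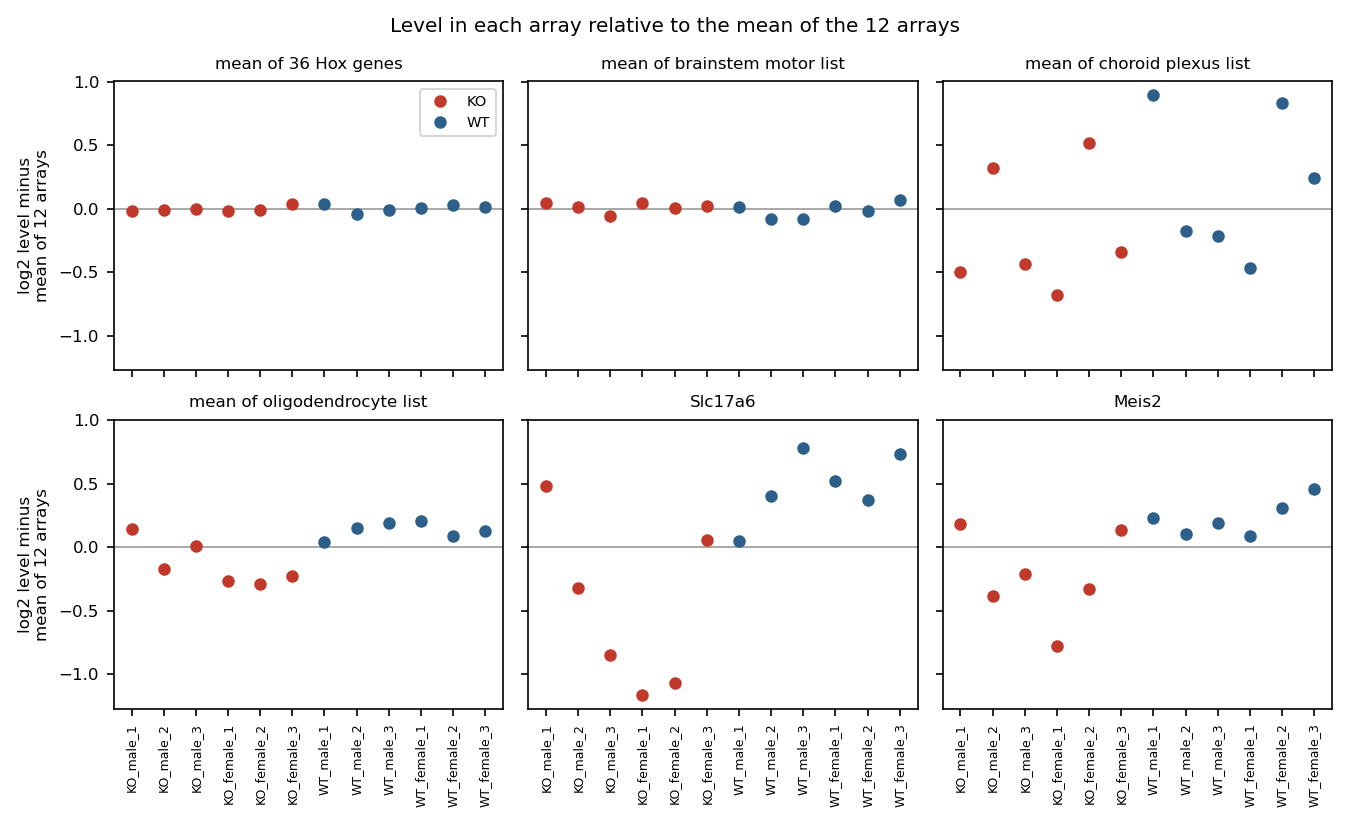
Log2 level in each array minus the mean of the 12 arrays, for the mean of the 36 Hox genes, the means of 3 marker lists, Slc17a6 and Meis2, with KO arrays (red) to the left of WT arrays (blue). The Hox mean spans 0.08 and the choroid plexus list 1.58; Slc17a6 spans 1.95 and Meis2 1.24, which as single genes compare with the 0.26 to 0.55 of single Hox genes.

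The other cofactors of Hox proteins were bright in the same tissue. TALE homeodomain proteins bind DNA next to Hox proteins and raise their selectivity, and 7 of the 8 measured genes of this class lay above the olfactory 95th percentile. Meis1, which granule cells express, averaged 9.92 in KO and 9.93 in WT. Pknox2, a brain-enriched member, averaged 8.98 in KO and 8.85 in WT, a difference of 0.13 (SE 0.05; limma adjusted p = 0.467). Of these 8 genes, 4 were higher and 4 lower in KO, 0 passed, and the median difference was 0.01, against -0.00 over all genes.

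Genes that mark the territory in front of the Hox domains were mixed in level. En2, a homeodomain factor of the midbrain-hindbrain boundary that stays on in granule cells, averaged 9.78 ± 0.06 in KO and 9.75 ± 0.05 in WT (SD, n = 6 each). Of the 12 genes of the boundary and rhombomere 1, 7 lay above the line, 6 were higher and 6 lower in KO, and 0 passed. Otx2, which marks forebrain, midbrain and choroid plexus, differed by -0.28 (SE 0.14; limma adjusted p = 0.581), and Irx2 by -0.10 (SE 0.05; adjusted p = 0.586). Otx2 was highest, at 8.29 and 8.03, in WT_male replicate 1 and WT_female replicate 2, the same arrays that were highest in choroid plexus markers, at 7.99 and 7.93. With the choroid plexus level as a covariate the difference of Otx2 kept its sign and did not pass. How much of that difference goes with choroid plexus was not tested.

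Regulators that set Hox expression in the embryo, among them retinoic acid receptors and Cdx factors, gave 3 genes higher and 12 lower in KO with a median of -0.05. Of these 15 genes 0 passed. The receptor Rarb differed by 0.14 (SE 0.06; limma adjusted p = 0.5) and Aldh1a2, which makes retinoic acid, by -0.24 (SE 0.14; adjusted p = 0.625). The Cdx factors read within the range of the Hox means and above their median of 5.55, with means of 5.95 for Cdx1, 5.92 for Cdx2 and 5.72 for Cdx4.

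Noncoding genes of the clusters were also dim. Of 17 listed, 7 had a row, 1 averaged above the olfactory 95th percentile, 5 were higher and 2 lower in KO, and 0 passed with limma. Their mean level ran from 5.32 in KO_male replicate 2 to 5.62 in KO_female replicate 3, with KO_female replicate 1 next at 5.48. KO_female replicate 3 was also highest in the mean of the 36 Hox genes, at 5.694, but barely above WT_male replicate 1 at 5.692. In the mean of the 5 brightest, which are part of the 36, KO_female replicate 3 was highest at 6.82. The cause was not tested. Hotair, the long noncoding RNA of the Hoxc cluster, averaged 6.01, and the antisense gene Hoxaas3 averaged 6.30 and differed by 0.08 (SE 0.06). Hox clusters carry microRNA genes of the miR-10 and miR-196 families, which target Hox messages themselves. Rows on different chromosomes stand for a pair of genes that yield the same mature miR-196a-5p, and their hairpins are shown because they share that arm while their rows read differently. The sequences are from RefSeq (GRCm38.p6), 5′ to 3′, with the mature 5p arm in capitals.
Mir196a-1 hairpin, chr11:96265164-96265265, plus strand: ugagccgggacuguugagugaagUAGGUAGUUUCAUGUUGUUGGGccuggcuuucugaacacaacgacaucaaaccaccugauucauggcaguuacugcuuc
Mir196a-2 hairpin, chr15:102973350-102973434, plus strand: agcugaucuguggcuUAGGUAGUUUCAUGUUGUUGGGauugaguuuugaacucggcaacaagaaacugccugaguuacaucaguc
The mature sequences, with the seed (bases 2 to 8) in capitals, show that miR-196a-5p and miR-10b-5p have different seeds.
mmu-miR-196a-5p: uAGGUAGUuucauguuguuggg
mmu-miR-10b-5p: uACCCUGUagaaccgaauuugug

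Mir196a-1, in the Hoxb cluster, read 6.39, 6.38 and 6.96 in KO_male, 6.89, 6.69 and 6.98 in KO_female, 6.42, 6.54 and 6.28 in WT_male and 6.49, 6.65 and 6.47 in WT_female. All 3 KO_female arrays exceeded the WT arrays, while 2 KO_male arrays lay among them. The difference was 0.24 (SE 0.10; limma adjusted p = 0.517), and 0.15 without KO_male replicate 3. Mir196a-2, in the Hoxc cluster, averaged 4.62 in KO and 4.58 in WT, a difference of 0.04 (SE 0.09; adjusted p = 0.922). The row of Mir10b in the Hoxd cluster averaged 3.03 in KO and 2.96 in WT. Total RNA was labelled, per the labels, and which form of a microRNA these rows read was not tested.

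The genes whose levels followed the mean of the 5 brightest Hox members most closely over the 12 arrays were mostly dim themselves. That mean ranged over 0.27, from 6.55 in KO_male replicate 1 to 6.82 in KO_female replicate 3. Of the 10 genes with the highest Pearson correlation, 3 lay above the olfactory 95th percentile, where 59.7% of all genes did, and 0 belonged to a marker list. The lists hold only a small part of the 22180 genes, so this 0 says little about their markers. The 6 with a regular name were Btbd35f1 (r = 0.92), Patl2 (0.91), Apol10a (0.91), Rdh8 (0.90), Crisp3 (0.89) and Gpr34 (0.88). The closest of all, at 0.96, was an olfactory receptor row. These values are descriptions over 12 arrays that share their normalization.

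Markers of other tissue were read for the whole of each list. Of 9 measured oligodendrocyte markers all 9 were lower in KO, with mean levels of 8.75 to 9.18 in KO arrays and 9.08 to 9.25 in WT arrays. Opalin, a myelin membrane protein, was the 1 that passed, at -0.45 (SE 0.06; limma adjusted p = 0.037), and Mal differed by -0.36 (SE 0.06; adjusted p = 0.154). Opalin differed by -0.72 (SE 0.08; adjusted p = 0.0144) in females and by -0.19 (SE 0.08; adjusted p = 0.91) in males, and the interaction did not pass (-0.53, SE 0.12; limma unadjusted p = 0.00087, adjusted p = 0.772). The median of the list was -0.38 in females, with 9 of 9 lower, and -0.14 in males, with 8 of 9 lower. With 1 array left out, Opalin still passed only without KO_male replicate 1, WT_female replicate 1 or WT_female replicate 3, and its adjusted p ranged from 0.0396 to 0.158. All 11 choroid plexus markers were lower in KO and 0 passed; Slco1a5 differed by -0.26 (-0.16 without KO_female replicate 3) and Folr1 by -0.36. Mbp, the main myelin protein gene, averaged 9.58 in KO and 9.79 in WT. With the choroid plexus level as a covariate Hoxa5 differed by -0.18 (limma adjusted p = 0.431), and with the brainstem motor level by -0.18 (adjusted p = 0.364). The brainstem motor markers did not vary together (median correlation -0.11), so their level is not shown to follow brainstem content. The part of oligodendrocytes in the Hoxa5 difference was not tested. Of 8 meningeal markers 6 were higher and 2 lower, with differences of -0.11 for Col1a2 and 0.05 for Col1a1. Of 6 measured forebrain and midbrain markers 1 was higher and 5 lower, with -0.08 for Emx1 and -0.06 for Slc6a3. These were -0.02 for Emx1 without KO_female replicate 1 and -0.01 for Slc6a3 without KO_male replicate 3. Of 4 measured Purkinje cell markers 3 were higher, with 0.11 for Ppp1r17 (0.06 without KO_male replicate 2) and 0.06 for Rgs8, and of 7 granule cell markers 3 were higher, with 0.15 for Etv1 and 0.07 for Gabrd. In these last lists 0 members passed.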

How the data were processed

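Per the labels, the authors ran RMA over core exons in Expression Console. The deposited intensity values are linear, as their size shows, and the median of an array was 96.5 to 98.7. The submitters' processing notes list Transcriptome Analysis Console 3.0 too. The array annotation's genome build is not given in the sources used here. Log2 of each intensity was taken here, with no pseudocount or further normalization. Of 41345 rows, 23521 had 1 gene symbol, 1814 several and 16010 none in GEO's platform annotation. The brightest row per gene gave 22180 genes, none removed for brightness, and 7 rows naming a Hox gene with another gene were not used.

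A mean per group was fitted with limma 3.58.1 in R 4.3.3 over all 12 arrays and moderated with eBayes. Tests were two-sided, Benjamini-Hochberg adjusted over all genes, with a threshold of 0.05, after a trial on simulated data. The labels do not say that animals were handled in batches, and replicate numbers only name arrays. The number of arrays limits the precision. Members and lists were chosen with earlier results of these data known. Values are given per array for up to 8 members above the olfactory 95th percentile, and for the 3 members with the smallest p in each contrast. In each list the 2 genes with the smallest p were named, beside 7 genes chosen for their levels. Outside this rule, Ret, Th, Ddc, Calb1, Gabra6, Uty, Cdx1, Cdx2, Cdx4, Hotair, Mir196a-2 and Mir10b were also named. Hoxc13, Hoxd3, Hoxd13 and the paralogues compared in sign were named after their values were seen. Alternatives were another row choice, quantile normalization, an intensity trend, a pseudocount of 16, a brightness filter, 2 covariates and leaving out each array.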

Additional observations from a re-analysis of the deposited data

Results flagged for a closer look

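Each Hox gene with values printed per array was examined in the 6 KO and the 6 WT arrays, 26 groups in all, for an array far from the rest. Hox genes given only by a mean or a difference were not examined. In such a check about 1 in 20 groups would be marked by chance, and 2 were. Hoxd10 in KO_male replicate 1 read 6.66, below the 7.0 to 7.17 of the other 5 KO arrays, a gap of 0.663 times the group's range against a critical value of 0.625. Without that array the difference of Hoxd10 between KO and WT was -0.0053. Hoxb4 in WT_female replicate 2 read 5.66, above the 5.39 to 5.47 of the other 5 WT arrays, a gap of 0.705 of the range.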

How the results depend on the processing

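The count of Hox members past the threshold was 0 in each of the 5 contrasts under all 7 other settings and with each of the 12 arrays left out, and the smallest adjusted p of any member was 0.264. The median difference between KO and WT stayed within -0.02 and -0.01 under the other settings and within -0.03 and 0.01 with an array left out. The brightness filter left 5 members, so no value for the dimmer ones was had under it. Differences near 0 changed sign with the brainstem motor covariate, where Hoxd8 differed by 0.0005 and Slc6a4 by -0.004. With the choroid plexus covariate Ttr differed by 0.0732, against -1.15 without it, and the covariate is a list mean that includes Ttr itself. With an array left out, the differences ranged from -0.0559 to 0.0362 for Hoxa6, from -0.0782 to 0.0126 for Hoxd12, from -0.0443 to 0.0196 for Hoxd8, from -0.0694 to 0.0654 for Slc6a4 and from -0.0428 to 0.023 for Meis1. The cause was not tested. With a pseudocount of 16, Hoxd9 differed by -0.12 over both sexes and -0.18 in males, Hoxa5 by -0.13 in males and Slco1a5 by -0.17. Leaving out 1 array moved the difference over both sexes by over 1.5 times in 25 of 42 named genes. Without 1 array, Emx1 ranged from -0.12 to -0.02 and Slc6a3 from -0.12 to -0.01. The call of Opalin was lost with the choroid plexus covariate (limma adjusted p = 0.0793) and with the brainstem motor covariate (0.105). Its difference hardly moved, at -0.47 and -0.44 with these covariates, against -0.45 without a covariate. Leaving out 1 array lost the call for 9 of the 12 arrays. The oligodendrocyte gene Mal passed when the prior spread followed intensity (adjusted p = 0.0189) and without WT_male replicate 1 (0.0309). No paired analysis was possible because the labels give the arrays no replicate numbers shared between groups. Low signal limits what these rows can show of Hox RNA.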
